A study of Mus musculus with 8 samples.

Results

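At 1945 positions in the nuclear genome, the anti-m6A antibody libraries held a smaller share of their reads than the matched Input libraries held of theirs. The cells were αTC1-6, an immortalized mouse cell line that stands for the glucagon-secreting alpha cell of the pancreatic islet. A position was counted among them when its antibody (IP) to Input ratio in the scramble control libraries was 0.5 or less and its summed control Input count was 50 or more. The ratio was (mean IP CPM + 0.5) / (mean Input CPM + 0.5), where CPM is the count scaled to the total of its library. The 1945 depleted sites were 9.389% of the 20716 nuclear sites past that Input minimum and 5.78% of all 33650 nuclear sites in a table of 33774. Each depleted site was 1 base long.

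The study profiled m6A by m6A-eCLIP, in which RNA is bound by an anti-m6A antibody, joined to it by ultraviolet light and sequenced beside an Input library of the same RNA. Cells carried either scramble siRNA (SCR) or siRNA against Mettl14 (M14KD), which encodes a core subunit of the m6A methyltransferase. There were 4 groups of 2 libraries: Input SCR and IP SCR (replicates 1 and 2), and Input M14KD and IP M14KD (replicates 3 and 4). All libraries came from 1 cell line, the loss of Mettl14 was a knockdown and not a deletion, and no label says whether replicates were separate cultures, so p-values here measure the spread between these libraries.

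N6-methyladenosine is placed on messenger RNA mainly by the METTL3 and METTL14 complex. It lies mostly in long internal exons and near stop codons, within short motifs around an adenosine, and exon junctions keep it away from nearby sequence, so short genes with many small exons carry little of it. An IP library gains reads at methylated positions, and positions without m6A then take up a smaller share of it than of the Input. Whether the depleted sites described here lack m6A was not tested.

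The table held 3438530 to 3637740 counts in an Input library and 10207383 to 10918559 in an IP library. Mettl14 itself had 2 sites, neither of them depleted by the rule: the ratio was 0.586 at chr3:123368535, and the Input counts of 29 and 20 at chr3:123369542 fell short of the minimum. At the latter the Input CPM was 8.02 and 5.50 in SCR and 3.32 and 3.49 in M14KD, so the knockdown libraries were lower in both replicates, but the fitted log2 difference of -0.96 had an adjusted p of 0.423 (edgeR quasi-likelihood test). At the former the values were 9.68 and 6.60 in SCR, and 5.53 and 2.91 after the knockdown. The alpha cell markers Gcg, Ttr, Irx1, Irx2 and Pcsk2 had sites, and Gc had none. Markers of beta, PP, acinar, stromal, immune and endothelial cells had no site. For delta cells only Rbp4, which alpha cells also express, and for duct only Sox9 had sites.

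Depleted sites could be shown as sequence where they lay at a gene start, since the RefSeq promoter sequences (GRCm38.p6) cover only those positions. The first 8 windows are the depleted sites with the lowest control ratios among those that could be read, 1 per gene. The last 4 are the sites at gene starts with the highest control ratios, 1 per gene, shown for contrast. Each window is 21 bases on the gene's strand, and the capital marks the base of the site.

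Tomm22, chr15:79670869-79670889, plus strand: tccgcttccgGtgtcctacag

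Srsf3, chr17:29032661-29032681, plus strand: cggtggtggtCcgccatttcg

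Atp5e, chr2:174464078-174464098, minus strand: accccttccgCtactcaggcc

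Slc38a5, chrX:8271385-8271405, plus strand: tgggggcgggAgatagggact

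Ndufa4, chr6:11907430-11907450, minus strand: ggacgtccgcTcagccaggtt

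Abcf1, chr17:35969731-35969751, minus strand: ggcgccgctgGaggactctta

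Smim14, chr5:65492836-65492856, minus strand: gacgtggtctAtcgaatccaa

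Atp5md, chr19:47090614-47090634, minus strand: gccgagctcgTcgctaggttt

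Rbbp6, chr7:122970593-122970613, plus strand: ggtcattcggActctaacgtg

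Klc1, chr12:111758878-111758898, plus strand: cgacgccattTtcggcggcgg

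Abhd2, chr7:79273257-79273277, plus strand: atttctatgaGcgcagccggc

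Malat1, chr19:5802658-5802678, minus strand: ctgcgtcaggCattcaggcag

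The control ratio was 0.119 at the Tomm22 site, 0.129 at Srsf3, 0.143 at Atp5e, 0.199 at Slc38a5, 0.240 at Ndufa4, 0.297 at Abcf1, 0.304 at Smim14 and 0.321 at Atp5md. In the knockdown the same sites, in that order, had ratios of 0.149, 0.198, 0.169, 0.240, 0.254, 0.557, 0.349 and 0.330. All 8 were higher than in the controls, a direction that choosing the lowest control ratios favours, and only the Abcf1 site passed 0.5. At the 4 sites printed for contrast the control ratio was 3.62 in Rbbp6, 3.27 in Klc1, 2.81 in Abhd2 and 2.50 in the noncoding RNA gene Malat1. Tomm22 encodes a receptor of the mitochondrial import pore, Srsf3 a splicing factor, and Atp5e, Ndufa4 and Atp5md small subunits of the respiratory chain or ATP synthase.

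A window of this kind could be read for 56 depleted sites in 44 genes and for 220 sites past the Input minimum that were not depleted. GGAC, the core of the commonest m6A motif, occurred in 16.07% of the depleted windows, in 7.73% of the others and in 6.71% of 32851 windows centred on a gene start. Its reverse complement GTCC occurred in 12.5%, 5.91% and 6.83% of the same sets. The base at the site was A in 35.71% of depleted and 36.82% of other windows. The base 5 positions downstream was C in 50% of depleted and 50.45% of other windows, against 27.7% at gene starts. Neighbouring windows overlap and share sequence, so these shares are descriptions of few regions. A match is not a methylated base.

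Annotation put 1850 of the 1945 sites (95.116%) in 1 named gene, and these fell in 1138 genes of the 3874 that had a nuclear site past the minimum. The names come from RefSeq gene spans of the same build, and 71 of the named sites lay in the span of another gene too. The table gives no strand for a site, so overlapping genes cannot be told apart, and whether a site was exonic, intronic or in a UTR was not assigned. Protein-coding genes held 1832 of the depleted sites, or 9.379% of the 19532 such sites past the minimum. Pseudogenes held 12 of 42 sites (28.571%), and reads at these may come from the parent gene. Chromosome X had the highest share among the placed chromosomes, 83 of 468 sites (17.735%). Maged1, of the MAGE family, and the Bex (brain-expressed X-linked) genes held many of these: 9 sites in Maged1, 9 in Bex3, 8 in Bex2 and 4 in Bex1. On chromosome 16 the share was 6.298%.

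Most genes had few depleted sites. Of the 1138 genes, 784 had 1 depleted site and 39 had 5 or more. Chga, which encodes the granule protein chromogranin A, had the most, with 23 of its 28 sites past the minimum, and Gcg, the glucagon gene, had 21 of 23. Tubb5, a beta-tubulin gene, had 13 of 16, and Atp1b1, the beta subunit of the sodium pump, had 10 of 18.

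Some genes were depleted at each site past the minimum. Among the 827 genes with a depleted site and 3 or more sites past the minimum, 23 were of this kind. They included Bex3 (9 of 9), Uqcr10 (8 of 8), a subunit of respiratory complex III, Bex2 (8 of 8), Ttr (7 of 7), which encodes the carrier protein transthyretin, and Ndufa4 (6 of 6). Atp5e (5 of 5) and Atp5b (3 of 3) of ATP synthase, Got2 (5 of 5), the mitochondrial aspartate aminotransferase, and Hspa5 (3 of 3), the chaperone BiP, were also among them.

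Other genes held depleted and enriched sites side by side. Of the 827 genes, 378 also had a site with a control ratio of 2 or more. Fen1, which encodes a flap endonuclease of DNA replication, had 5 depleted sites of 21, and its ratios ran from 0.318 to 9.37 in SCR and from 0.329 to 8.84 in M14KD. Tsc22d1, a transcription regulator gene, had 5 of 29, with control ratios from 0.256 to 6.02. Il1r1, the interleukin-1 receptor gene, had 8 of 62, from 0.235 to 4.23. The spread along these genes was of the same size in the knockdown, with highest ratios of 6.02 in Tsc22d1 and 4.94 in Il1r1.

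At single sites the IP and Input libraries lay well apart, which in SCR follows from the choice of sites. At chr2:62480484 in Gcg the Input CPM was 4088 and 3841 in SCR and 4419 and 4797 in M14KD. The IP CPM there was 837 and 787 in SCR and 1022 and 1027 in M14KD. Each IP library was below each Input library, and both knockdown libraries were above both controls in IP and in Input, though neither difference was called (adjusted p 0.0536 in IP and 0.371 in Input, edgeR).

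At chr12:102564801 in Chga the Input CPM was 996 and 1115 in SCR and 1113 and 1124 in M14KD. The IP CPM was 208 and 219 in SCR and 217 and 215 in M14KD, so the knockdown IP values lay between the controls. Fitted IP over Input in the knockdown was -3.09 ± 0.09 (log2, SE; edgeR adjusted p 4.9e-23).

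At chr2:174346598 in Gnas, the gene of the stimulatory G protein alpha subunit, the Input CPM was 913 and 984 in SCR and 986 and 1090 in M14KD. The IP CPM was 240.0 and 239 in SCR and 241 and 283 in M14KD. Again no IP library reached an Input library, and M14KD replicate 4 was the highest in both kinds of library.

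In Hsp90ab1, a cytosolic chaperone gene, the site at chr17:45569053 had Input CPM of 548 and 567 in SCR and 505 and 498 in M14KD. The IP CPM was 108 and 112 in SCR and 104 and 100.2 in M14KD. Here both knockdown libraries were lower than both controls in each kind of library, by less than the test called (adjusted p 0.683 in Input and 0.712 in IP, edgeR).

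In Uqcr10 the site at chr11:4704245, 99 bases from the gene start, had Input CPM of 383 and 398 in SCR and 413 and 400 in M14KD, and IP CPM of 81.7 and 85.0 in SCR and 95.1 and 94.4 in M14KD. In Tubb5 the site at chr17:35835313 had Input CPM of 457 and 509 in SCR and 457 and 494 in M14KD, and IP CPM of 149.6 and 146 in SCR and 147 and 154 in M14KD. SCR and M14KD overlapped in both kinds of library at Tubb5 and in neither at Uqcr10, where no difference was called (adjusted p 0.267 in IP and 0.854 in Input, edgeR).

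The lowest control ratio, 0.115, was at chr10:81181948 in Eef2, the gene of the ribosome translocation factor. The Input CPM was 283 and 296 in SCR and 231 and 274 in M14KD. The IP CPM was 31.5 and 34.3 in SCR and 32.5 and 35.8 in M14KD, and the knockdown ratio was 0.137. Eef2 was depleted at 3 of 16 sites, with ratios up to 1.92 elsewhere in the gene. The next lowest ratios were 0.118 in Papss1, an enzyme gene of sulfate donor synthesis, where the IP counts were only 7, 6, 8 and 7, then Tomm22, Srsf3 and a second site of Uqcr10 (0.136).

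**Figure D1:**
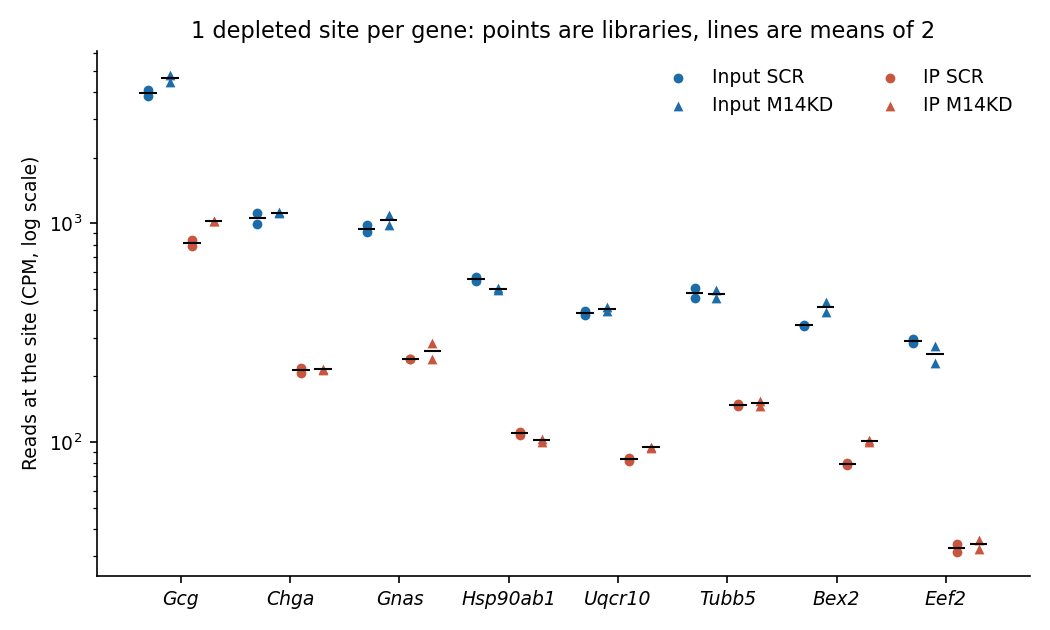
Reads at 1 depleted site in each of 8 genes, in CPM on a log axis, with a point per library and a line at the mean of 2 libraries. Both IP groups sit below both Input groups at each site, for example at 31.5 to 35.8 against 231 to 296 CPM in Eef2. In SCR this follows from the choice of sites.

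The depleted sites took a larger share of Input reads than of IP reads. They held 21.134% and 21.327% of Input counts in SCR and 22.481% and 22.482% in M14KD. In IP libraries they held 6.949% and 6.977% in SCR and 7.544% and 7.533% in M14KD. Without the Gcg sites the shares were 17.127% to 18.08% of Input and 5.858% to 6.282% of IP counts. The median depleted site had 35.4 to 36.6 CPM in an Input library and 13.5 to 13.9 CPM in an IP library.

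The limit of 0.5 cuts through a continuous range. The control ratio of the depleted sites had a median of 0.395 and a lowest value of 0.115, and all nuclear sites past the minimum had a median of 1.35. Just inside the limit were sites in Ubl3 (0.499769), Llph (0.499848) and Tubb6 (0.4999), and just outside were Gm4674 (0.500002), Sh3bp4 (0.500314) and Unc50 (0.500352). The control libraries chose the sites, so these values carry no test. For the same reason nothing is read from the fit in SCR, where all 1945 were called lower and percent called lower over all sites was 33.4.

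The M14KD libraries, which the choice did not use, gave the same measure again. IP over Input was lower in M14KD at 1944 of the 1945 depleted sites (edgeR quasi-likelihood test, adjusted p of 0.05 or less over all 33356 sites tested), where percent called lower over all sites was 33.1. The median log2 difference was -2.08 at the depleted sites, with 5th and 95th percentiles of -2.93 and -1.54, and 0.04 over all sites tested. The 1944 sites included all those in Gcg, Chga, Tubb5 and Ttr. Both IP libraries lay below both Input libraries of the knockdown, in CPM, at 1939 depleted sites (99.692%), against 29.2% of nuclear sites past the minimum.

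The size of this difference depends on the scaling. The fit used TMM factors, which differed between Input (0.768 to 0.794) and IP libraries (1.27 to 1.29), and with column totals instead the median of all sites rose from 0.04 to 0.76. With column totals 1931 depleted sites were still called lower, while calls over all sites went from 50.47% higher to 77.62% higher.

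The knockdown ratio had a median of 0.401 at the depleted sites, beside 0.395 in the controls. It was 0.5 or less at 1623 sites (83.445%). The ratio was below 1 in all 4 pairs of IP and Input library at 1942 sites (99.846%), and 0.5 or less in all 4 pairs at 1287 (66.17%). The same limits applied to the M14KD libraries gave 1924 sites, of which 1604 were on both lists, or 82.468% of the SCR list and 83.368% of the M14KD list. The knockdown ratio was above the control ratio at 1168 sites (60.051%), a direction that a choice on low control ratios favours. Read the other way, on the list chosen by M14KD the control ratio was the higher one at 1091 sites (56.705%).

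**Figure D2:**
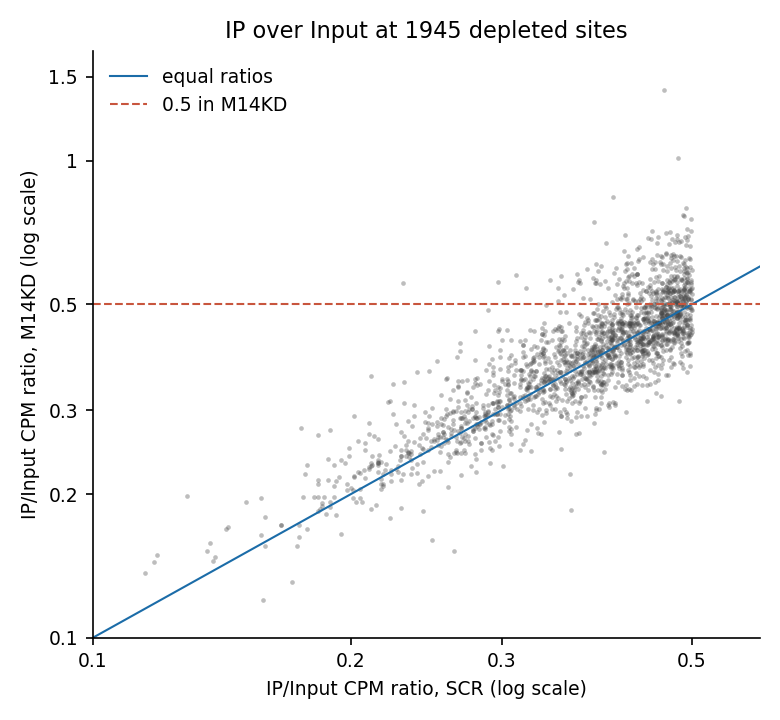
IP to Input CPM ratio of each of the 1945 depleted sites in SCR (x) and M14KD (y), both on log axes, with a line of equal ratios and a dashed line at 0.5. The points follow the line of equal ratios, 1623 lie at or below 0.5 in M14KD, and Usp47 lies highest at 1.41.

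The depleted sites were spread unevenly over Input abundance. In the lowest decile of sites by summed SCR Input count (50 to 58 counts) 2.51% were depleted, and in the highest decile (402 to 28757 counts) 33.494% were. The median ratio went from 1.85 to 0.65 over the same range. The SCR Input count is part of the ratio as its denominator, so the sites were also ordered by the M14KD Input count. In the lowest and highest decile of that order 3.33% and 33.156% of sites were depleted by the control ratio, and 1.786% and 33.205% had an M14KD ratio of 0.5 or less.

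**Figure D3:**
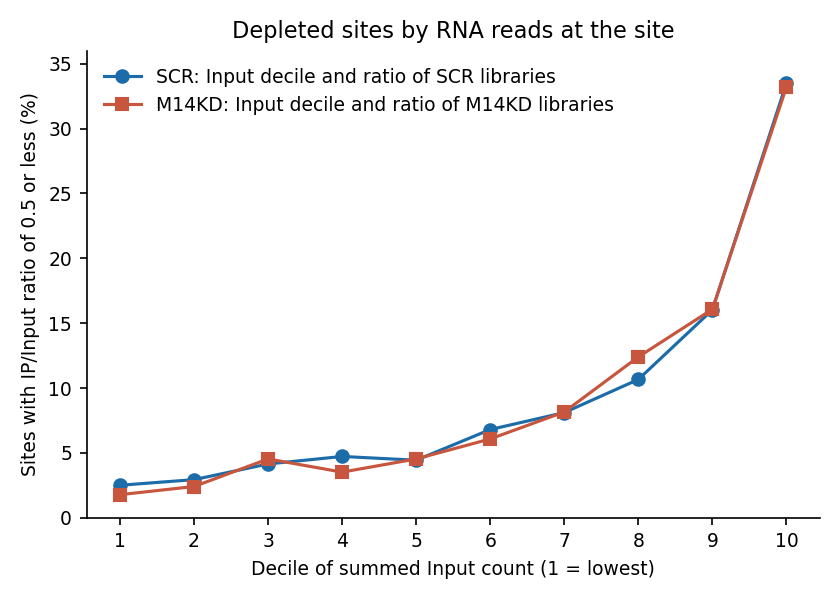
Percent of nuclear sites past the Input minimum with an IP to Input ratio of 0.5 or less, by decile of summed Input count, with Input and ratio both from SCR or both from M14KD. Both lines rise with Input count, from 2.51% to 33.494% in SCR and from 1.786% to 33.205% in M14KD.

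The depleted sites lay in shorter genes and more of them lay near the gene ends, as shares without a test. Position was measured for 1506 depleted and 14715 other sites past the minimum whose gene had a strand in the reference tables. The median gene span was 14224 bases for depleted and 21452 for other sites, and the median distance from the gene start was 8118 and 15168 bases. Within 200 bases of the gene start lay 146 depleted sites (9.69%) and 475 others (3.23%). Within 200 bases of the gene end lay 8.76% of depleted and 4.84% of other sites.

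Turned round, 23.51% of the 621 sites within 200 bases of a gene start were depleted, and 8.718% of the 15600 sites further away. Sites at gene starts also had more Input reads, so the shares were set out by quintile of the Input count. In the lowest quintile they were 12.5% at starts (6 of 48 sites) and 2.471% further away, and in the second 28.947% (11 of 38) and 3.93%. In the third they were 13.235% (9 of 68) and 5.069%, and in the fourth 24.074% (26 of 108) and 8.929%. In the highest quintile, which held 359 of the 621 start sites, they were 26.184% and 24.749%. Genes whose sites lay there included Uqcr10, Ndufa4, Tomm22, Srsf3, Tceal9 and Id2. The part of read position along short messenger RNAs in these shares was not tested.

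**Figure D4:**
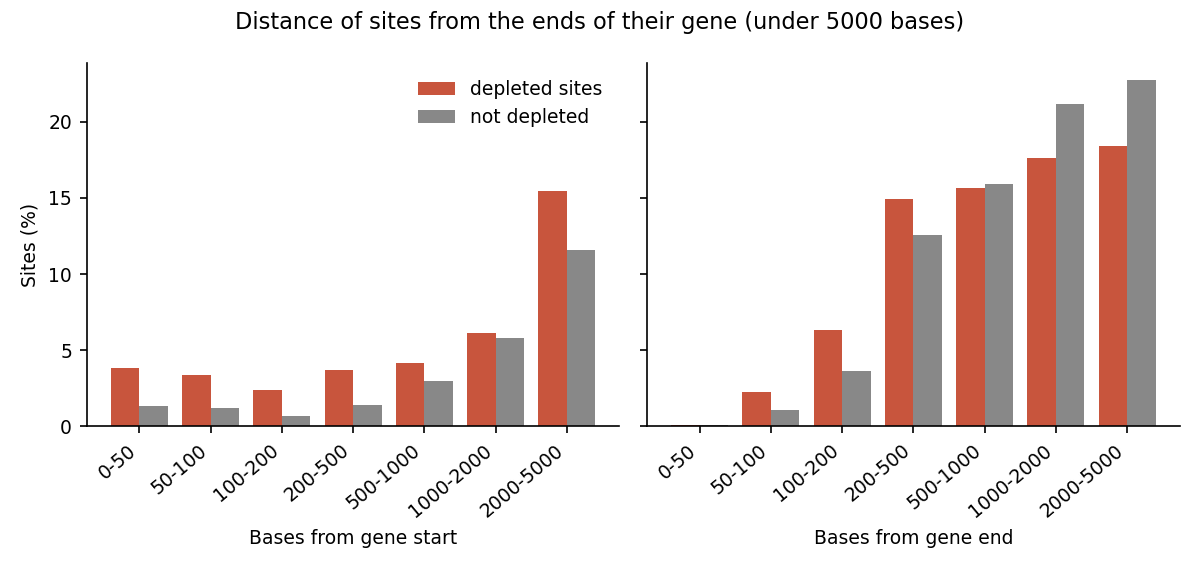
Percent of depleted and other sites in bins of distance from the gene start and from the gene end, in bases, for sites under 5000 bases away. Depleted sites are more frequent in the bins next to the gene start, where the first 200 bases hold 9.69% of them against 3.23% of the others.

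Depleted sites had fewer close neighbours, again as shares without a test. Another depleted site lay within 100 bases of 679 depleted sites (34.91%). Any other site past the minimum lay within 100 bases of 63.393% of depleted sites and of 79.818% of all nuclear sites past the minimum. The labels do not state if 1 read could add to the count of more than 1 such neighbour.

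Gene groups differed in how many of their sites were depleted, which is given as counts beside the 9.389% over all nuclear sites past the minimum. In the list of hormone and secretory granule genes 79 of 175 sites past the minimum (45.143%) were depleted, in 11 of 20 genes. Chga (23 of 28) and Gcg (21 of 23) held most of these 79. Besides Ttr, others were in Gnas (9 of 19), which the calcium and G protein signalling list also counts. Scg2, the granule protein secretogranin II, had 9 of 22 and Chgb, chromogranin B, had 3 of 15. Pcsk2, the prohormone convertase that alpha cells carry, had 3 of 15. In Chga the ratios ran from 0.184 to 2.25, and in Gcg from 0.183 to 0.643.

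Nuclear genes of the respiratory chain and ATP synthase had 61 of 144 sites depleted (42.361%), in 27 of 45 genes. Uqcr10, Ndufa4, Atp5e and Atp5b had median control ratios of 0.270, 0.288, 0.324 and 0.204. Uqcrfs1, the Rieske iron-sulfur protein of complex III, had 6 of 17, with ratios from 0.236 to 0.887. Mitochondrial ribosomal protein genes had 26 of 246 sites depleted (10.569%), with a median ratio of 1.16 against 0.535 for the respiratory chain list.

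Cytoskeleton genes had 34 of 122 sites depleted, among them Tubb5, Tubb4b (8 of 14) and Tmsb4x (4 of 9), the gene of the actin-binding peptide thymosin beta-4. Heat shock and proteasome genes had 22 of 91, with 7 of 8 in Hsp90ab1, 4 of 7 in Hspa9 and 3 of 3 in the ubiquitin gene Ubb. Splicing and RNA processing genes had 38 of 210, of which 7 of 8 were in Hnrnpa2b1, an RNA-binding protein. Reads from tubulin, elongation factor and Bex family members may be split between near-identical copies, and the labels do not say how the counting treated such reads.

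Further lists also lay above the share over all sites. Glycolysis and central metabolism had 28 of 129 sites depleted, with 3 of 3 in Ldhb and 3 of 8 in Tpi1. Genes of lysosomes, the vacuolar ATPase and vesicles had 22 of 97, with 3 of 3 in the membrane protein gene Lamp1. ER folding and secretion had 18 of 109, with 6 of 13 in P4hb, the protein disulfide isomerase gene. Translation factors had 19 of 119, and cytosolic ribosomal proteins 9 of 35, which include 2 sites of the kinase gene Rps6ka2 that the list's name pattern took in.

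Islet transcription factor genes lay close to the share over all nuclear sites past the minimum (9.389%), and the m6A and noncoding RNA lists lay below it. Alpha and islet transcription factors had 10 of 105 sites depleted (9.524%): Etv1 had 4 of 5, Irx1 3 of 19, and Foxa2, Isl1 and Nkx2-2 had 1 each. Isl1 and Foxa2, regulators of islet cell identity, had sites with ratios up to 4.32 and 4.63. Writers, readers and erasers of m6A had 0 of 66 sites depleted, with a median control ratio of 1.84. Genes on the noncoding RNA list had 0 of 23, but only 4 of its genes had sites past the minimum. By annotation, 6 of the 98 sites past the minimum in 1 noncoding RNA gene were depleted (6.122%).

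These lists also differed in Input reads. The median summed SCR Input count of a site was 998 for the granule list, 1138 for the respiratory chain list, 171 for islet transcription factors and 69.5 for the m6A list, beside 115 over all nuclear sites past the minimum. Among sites in the highest decile of Input count, where 33.494% of all were depleted, the shares were 61.017% for the granule list (72 of 118), 46.341% for the respiratory chain (57 of 123), 56.0% for ion channels and membrane pumps (14 of 25) and 20% for islet transcription factors (6 of 30). Lists that were above the share over all sites without regard to Input were below that decile's share: 23.81% for lysosomes and vesicles, 25.862% for translation factors, 26.984% for calcium and G protein signalling, 27.273% for cytosolic and for mitochondrial ribosomal proteins and 28.205% for ER folding. Splicing stood at 33.333%, heat shock and proteasome at 35.088%, cytoskeleton at 39.062% and glycolysis at 50%. The m6A and noncoding RNA lists had no site there. In that decile the median control ratio was 0.428 for the granule list, 0.508 for the respiratory chain and 0.654 over all its sites.

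**Figure D5:**
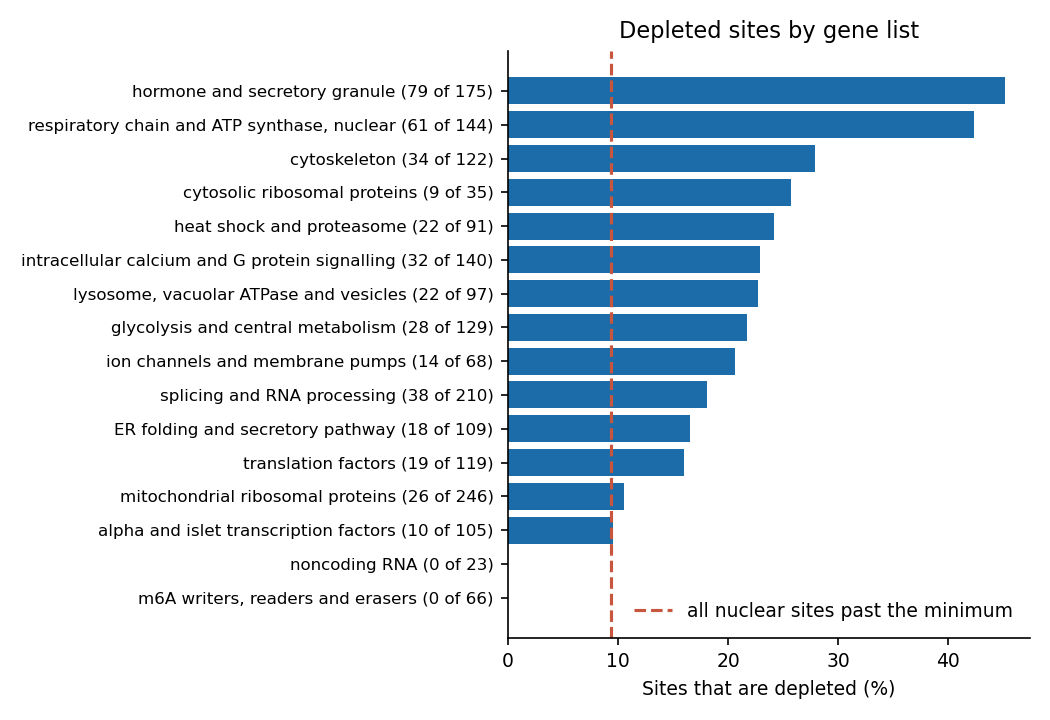
Percent of sites past the Input minimum that were depleted in each gene list, with the number of depleted sites and of all sites, and a dashed line at the share over all nuclear sites (9.389%). The granule list (45.143%) and the respiratory chain list (42.361%) reach furthest right, and the m6A and noncoding RNA lists are at 0.

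Antibody reads in M14KD were called different from SCR at few depleted sites. IP was higher in M14KD at 24 of the 1943 sites tested (1.235%), in 11 genes, where percent called higher over all 33348 sites was 0.255. IP was lower at 8 (0.412%), in 5 genes, where percent called lower was 0.375. The control IP libraries helped to choose the sites, and that choice favours higher IP in the knockdown, so both counts are descriptions. At an unadjusted p under 0.05 there were 272 higher and 100 lower, and the median log2 difference was 0.07 beside 0.01 over all sites.

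Ttr and Scg2 made up most of the higher calls, with 7 of 7 and 6 of 9 depleted sites. At chr18:20665492 in Ttr the IP CPM was 430.1 and 436 in SCR and 560.3 and 587 in M14KD. The Input CPM there was 995 and 993 in SCR and 1214 and 1165 in M14KD. All knockdown libraries were above the controls in both kinds, and only the IP difference was called (log2 0.43 ± 0.08, adjusted p 0.0205; Input 0.28 ± 0.08, adjusted p 0.25; edgeR).

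At chr1:79436870 in Scg2 the IP CPM was 73.4 and 72.8 in SCR and 102 and 98.7 in M14KD. The Input CPM was 214 and 222 in SCR and 295 and 293 in M14KD. Both kinds of library rose, by 0.48 ± 0.08 in IP (adjusted p 0.0134) and by 0.45 ± 0.09 in Input (adjusted p 0.0372, edgeR, log2), and the ratio stayed at 0.336 and 0.343.

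The other higher calls were single sites or pairs. Tceal9, an X-linked gene of the TCEAL family, rose by 0.49 ± 0.09 at its site 89 bases from the gene start (adjusted p 0.019, edgeR). Cox6c and Uqcrh, subunits of respiratory complexes IV and III, rose by 0.39 ± 0.09 and 0.36 ± 0.08 in log2. Id2, an inhibitor of helix-loop-helix factors, had IP CPM of 38.3 and 42.9 in SCR and 54.4 and 55.1 in M14KD, which do not overlap. Eny2, a subunit of chromatin and RNA export complexes, had the largest log2 difference of the called sites in IP, 0.92 ± 0.20 (adjusted p 0.0421, edgeR), from 46 and 44 reads in the SCR libraries to 83 and 79 in M14KD. Hnrnpa2b1, Srsf3, Bex2 and 1810037I17Rik each had 1 called site. DESeq2 did not call the named sites of Hnrnpa2b1, Id2, Bex2 and Srsf3 (adjusted p 0.0588 to 0.0821) and gave no adjusted p for Eny2.

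The lower calls by edgeR were in Eef1a1, Gars, Asns, Slc7a5 and Atp1b1. DESeq2 called 3 lower sites in place of 8, all in Eef1a1. It did not call Asns (adjusted p 0.0514) or Gars (0.069), and gave no adjusted p for Slc7a5 and Atp1b1. Eef1a1, translation elongation factor 1 alpha, was lower at 3 of 3 depleted sites, and at chr9:78478591 the IP CPM was 227 and 215 in SCR and 160.0 and 171 in M14KD. Asns, asparagine synthetase, had IP CPM of 57.8 and 62.3 in SCR and 41.8 and 44.5 in M14KD. Gars, the glycyl-tRNA synthetase, was lower at 2 of 6 sites. Slc7a5, a transporter of large neutral amino acids, fell by 0.65 ± 0.14 in IP (adjusted p 0.0368) and by 0.78 ± 0.16 in Input (adjusted p 0.0372, edgeR, log2).

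Atp1b1 was lower at 1 of 10 depleted sites. At chr1:164437694 its IP CPM was 33.0 and 35.6 in SCR and 24.5 and 21.6 in M14KD, while the Input CPM was 92.9 and 87.1 in SCR and 82.7 and 83.2 in M14KD. The IP difference was -0.55 ± 0.11 (adjusted p 0.0283) and the Input difference -0.10 ± 0.11 (adjusted p 0.852, edgeR, log2). At the gene's most abundant depleted site, chr1:164438435, the IP difference was -0.003 ± 0.09.

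Input RNA reads were called at fewer sites still. They were higher in M14KD at 5 of 1945 depleted sites (percent called over all 30147 sites 0.0697), 4 of them in Scg2 and 1 in 1810037I17Rik, and lower at 2 (percent called 0.0232), in Slc7a5 and Lonp1, the mitochondrial protease gene. DESeq2 did not call the site of Lonp1 (adjusted p 0.0747) or of 1810037I17Rik (0.0709), gave no adjusted p for Slc7a5, and called 12 higher, in Scg2, Ttr and Uqcrh, and 1 lower, in Eef1a1. At the Lonp1 site the Input CPM was 71.3 and 69.8 in SCR and 47.3 and 46.0 in M14KD. At an unadjusted p under 0.05 there were 182 higher and 124 lower. Fewer cells with an RNA and less RNA per cell cannot be told apart in these bulk libraries.

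The counts of knockdown calls rest on few libraries. Without replicate 3 edgeR called 0 depleted sites in IP in either direction, and without replicate 1 there were 80 higher and 34 lower. Without replicate 4 there were 9 higher and 0 lower in IP, and without replicate 2 there were 4 lower. In Input, 0 sites were called in either direction without replicate 3 or without replicate 4, 2 higher and 0 lower without replicate 2, and 4 higher and 6 lower without replicate 1.

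The change of IP over Input between genotypes was called at 0 depleted sites in either direction, and at 0 of 33356 sites in all (edgeR; percent called 0.0 both ways), as by DESeq2. At an unadjusted p under 0.05 it was higher at 44 and lower at 13 depleted sites. The median log2 change was 0.05 at depleted sites and -0.002 over all sites.

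The highest knockdown ratios were at sites with few Input reads. At chr7:112101742 in Usp47, a deubiquitinase gene, Input reads numbered 26 and 24 in the SCR libraries and 10 and 13 in M14KD. Antibody reads numbered 32 and 31 in the SCR libraries and 52 and 48 in M14KD. The knockdown lay below the controls in Input and above them in IP, and the ratio was 0.464 in SCR and 1.41 in M14KD. It was the 1 depleted site not called lower in M14KD (log2 -0.16 ± 0.33, adjusted p 0.696, edgeR). The next were Dffb, the gene of the apoptotic DNase, with 1.01, Slc22a23, an orphan transporter gene, with 0.840, H6pd with 0.796 and Ppp1r15b with 0.770. The M14KD Input counts were 23 and 18 in Dffb, 17 and 7 in Slc22a23, 14 and 18 in H6pd and 47 and 39 in Ppp1r15b.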

How the data were processed

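m6A-eCLIP libraries were made by the submitters from αTC1-6 cells, and the deposited table gives raw counts per site for 8 libraries. Reads passed UMI-tools, cutadapt and STAR with mm10, per the submitters' processing notes. The sources used here do not give versions, site calling or the counting window. Sites were named by RefSeq gene spans (GRCm38.p6, the same build), and 124 mitochondrial sites were left out of the depleted set. The sites, gene lists and markers were chosen with earlier results of these data known.

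Counts as deposited were fitted over all sites with edgeR 4.0.16 (R 4.3.3; filterByExpr, TMM, glmQLFit, glmQLFTest) and Benjamini-Hochberg adjustment at 0.05. IP over Input and its change used all 8 libraries, and each knockdown comparison used the 4 libraries of its kind. Alternatives were DESeq2 1.42.0, other scalings, filters and limits, and leaving out each replicate. Deviations of IP and Input with the same replicate number correlated weakly (r 0.189 in SCR, 0.108 in M14KD). With 2 libraries per group this cannot establish that the numbers pair these libraries. A fit with the replicate number as a block was run beside the main fit, which had none. Counts were also simulated for 33774 sites, with differences placed only at some sites with a mean count of at least 20. Of the 2-fold differences, 88% were recovered for IP over Input in M14KD and 42% for the change between genotypes. For IP over Input the simulated site means were pooled over IP and Input. The real libraries differ in these means, so the 88% need not hold for them.

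Named genes are the 12 with most depleted sites, the 12 with the highest summed SCR Input, the 5 lowest ratios, 3 on each side of the limit, knockdown calls (1 per gene, up to 10 each way), the 5 highest M14KD ratios, and Gcg, Ttr, Scg2 and Chgb. Genes given with list counts, for mixed or full depletion and for gene-start windows were added after their values were seen. Replicate pairs differed by more than sampling noise (chi-square per degree of freedom 1.35 to 2.55).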

Additional observations from a re-analysis of the deposited data

Results flagged for a closer look

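In Usp47 the IP to Input ratio was below 1 in both SCR pairs (0.446 and 0.484) and above 1 in both M14KD pairs (1.66 and 1.22), with a pooled M14KD ratio of 1.408. The site at chr7:112101742 had a summed SCR Input count of 50, the lowest the rule admits. The fitted change of IP over Input was 1.79 ± 0.42 (log2, SE) with an adjusted p of 1 by edgeR over all sites. The control ratio that chose the site is part of this difference.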

How the results depend on the processing

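IP over Input in M14KD was called lower at 1931 to 1944 depleted sites under each alternative run, and at 1937 to 1944 when a replicate was left out. With the replicate block it was 1944, the change between genotypes stayed at 0 sites, and the block changed no call at the depleted sites. Over all sites it moved lower calls of IP over Input from 11050 to 11463 and called 1 change between genotypes. Usp47 turned to 0.56 with column totals and lay between -0.39 (without replicate 3) and 0.096 (without replicate 4), and Dffb turned to 0.016 with column totals (log2). Over the named sites and alternatives, 448 values of IP over Input in M14KD kept their side of the threshold and 8 lost the call. For M14KD against SCR, 84 kept it and 48 lost it in IP, and 12 kept it and 23 lost it in Input. Of the sites higher in IP, 0 to 80 were called when a replicate was left out, and of those lower in IP 0 to 34, or 3 by DESeq2. Sites higher in Input numbered 12 by DESeq2, 0 with no filter, 11 with a mean count of at least 20 and 0 to 4 without a replicate. Sites lower in Input numbered 1 by DESeq2, 1 with DESeq2 size factors, 0 with no filter and 0 to 6 without a replicate. The cause was not tested. Where a replicate was left out, the lone library of its group is assumed to vary like the others. A limit of 0.4 gave 1011 depleted sites and TMM library sizes gave 5303, or 5311 by the same limits in M14KD, since TMM lowers each ratio. Other limits, offsets and 1 site per 100 bases gave 1543 to 2145, and without a replicate 1994 to 2015 in SCR and 1977 to 1991 in M14KD. In simulated counts 70% of 1.5-fold and 94% of 2-fold differences between genotypes were recovered in IP, and 34% and 74% in Input. These differences too were placed only at sites with a mean count of at least 20.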
